A study of Mus musculus with 50 samples.

Results

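The comparison set the colon of 10 mice given TNBS and the highest dose of A1007 against the colon of 10 sham mice. The 20 libraries were chosen by their sample titles, from 50 in the series, which holds 5 groups of 10. All mice carry the genotype label BALBC, the tissue is colon throughout, and all are given as 1 batch. The treated group received TNBS and A1007 at 90 mpk, the dose unit as the labels write it. The sham group carries the treatment label of sham alone. A group of 10 mice given TNBS and vehicle serves as the reference for the size of the TNBS difference. The series title calls the compound an orally active, gut-enriched agonist of the aryl hydrocarbon receptor, AhR. No source used here gives sex, age, the interval after TNBS, the dosing schedule or what the sham mice received. Each library is labelled as its own replicate, so p-values measure the spread between these libraries.

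TNBS is a hapten that, given into the rectum, provokes a T cell and neutrophil-rich colitis that can heal with fibrosis. It is widely used in BALB/c mice. Colon that has been ulcerated is repaired by regenerating crypts, new vessels and activated fibroblasts that lay down collagen, and mast cells, lymphocytes and matrix can persist after neutrophils have left. AhR is a ligand-activated transcription factor that pairs with Arnt and switches on detoxifying enzymes such as Cyp1a1. It also maintains lymphocytes of the gut wall and takes part in epithelial repair. A comparison with sham addresses what of the injury is still measurable at the highest dose and what lies beyond the level of uninjured colon.

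Gene-level counts summed to between 16031757 and 20391034 per sham library and between 14373337 and 20446967 per library at 90 mpk. The first principal component of the 20 libraries held 28.61% of the variance and placed every sham library on one side and every library at 90 mpk on the other. Defining genes of colon epithelium were high in both groups: Muc2 spanned 610.3 to 1171 FPKM (fragments per kilobase of exon and per total count of the library, the authors' unit of level) in sham and 720.3 to 973.1 at 90 mpk. One feature of the libraries did not follow the groups evenly. In 7 of the 10 sham libraries (replicates 2, 3, 5, 6, 8, 9 and 10) the pseudogene Hmgn2-ps stood at 19.5 to 26.4 FPKM and its parent Hmgn2 at 3.07 to 4.14 FPKM. The other 3 sham libraries (1, 4 and 7) had Hmgn2-ps at 7.7 to 7.99 FPKM and Hmgn2 at 10.9 to 11.4 FPKM, and all 10 libraries at 90 mpk had Hmgn2-ps at 6.17 to 9.19 FPKM. The ribosomal protein gene Rpl29 moved likewise, with 0.51 to 3.04 FPKM in those 7 sham libraries against 12.5 to 18.6 FPKM at 90 mpk. Across sham, vehicle and the 10 mpk group, 288 of 17928 tested genes followed this ratio. Of these 288, 198 were called between 90 mpk and sham, a larger share than the 45.3% called over all tested genes. Of the genes named below, Gsta1, Fcer1a, Muc2 and Jund were among the 288. Results below are therefore given also for the libraries of low ratio, 3 sham against 10 at 90 mpk. A second feature was pancreatic: digestive enzyme genes, summed without 3 that every colon library reads, reached 595.6 and 405.4 CPM (counts scaled to the library total) in replicates 2 and 4 at 90 mpk, against at most 7.638 in the other 8 and at most 10.91 in sham.

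**Figure D1:**
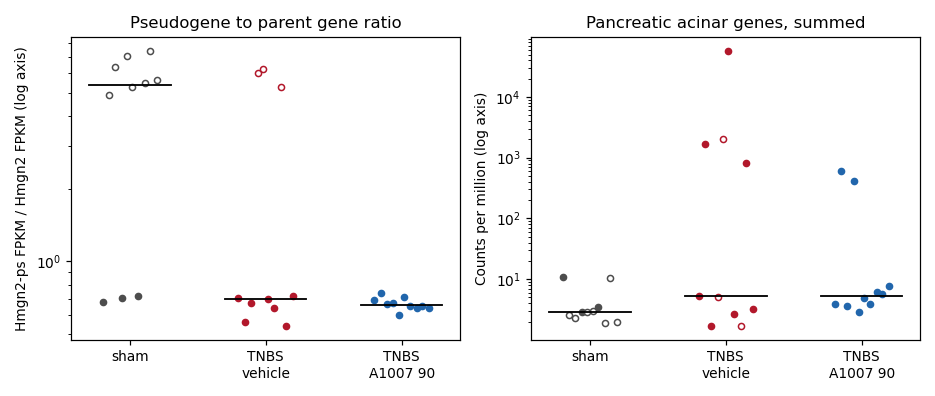
Left, ratio of Hmgn2-ps to Hmgn2 FPKM in each library; right, summed CPM of pancreatic acinar genes, both on log axes, for sham, TNBS vehicle and TNBS with A1007 at 90 mpk (10 mice each; the line is the median). Open circles mark libraries of high ratio: 7 of the 10 sham libraries, and none at 90 mpk. Replicates 2 and 4 at 90 mpk stand above the other 8 in pancreatic counts.

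Colon at 90 mpk differed from sham in many genes by small amounts. Of 17928 genes tested, 8122 (45.3%) passed an adjusted p of 0.05: 4246 (23.7%) were higher and 3876 (21.6%) lower at 90 mpk. The larger side turned with DESeq2 (4162 higher, 4185 lower) and with relative log expression size factors (4037 and 4051). It also turned with quantile normalization (3729 and 3976) and with the ratio as a term (2124 and 2150), and held in the other settings. Among the 8122 genes the median size of the log2 fold change was 0.33, and 6226 of them (76.7%) differed by less than 1.5-fold. Changes of at least 2-fold were called in 560 genes (3.12%), with 1.99% of all tested genes higher and 1.13% lower; with quantile normalization this direction turned, to 250 higher and 265 lower. Groups did not overlap in 607 genes (3.39%): the 10 values at 90 mpk lay wholly above the 10 sham values in 351 genes (1.96%) and wholly below them in 256 (1.43%). TNBS with vehicle, set against the same sham mice, gave 5677 called genes (31.7%) but 1203 (6.71%) at 2-fold or more. Vehicle was higher than sham in 18.4% of tested genes and lower in 13.3%. Against vehicle, 3328 genes (18.6%) were called at 90 mpk, 6.91% of tested genes higher and 11.7% lower. The directions of these last 2 comparisons turned with quantile normalization: of the genes it called, 41.4% were higher with vehicle than in sham and 56.9% higher at 90 mpk than with vehicle. For 90 mpk against vehicle the direction also turned with limma on log2(FPKM + 0.5) (1605 higher, 1286 lower) and on log2(FPKM + 0.1) (1625 and 1248). These comparisons share mice, so their values are given side by side and are not independent of each other. With the 3 sham libraries of low ratio, 3540 genes were called, 1783 higher and 1757 lower, and 3377 of them were among the 8122. Over the 8122 genes, 99.46% had the same direction in that fit, and the median ratio of the fold changes was 0.991. The low-ratio fit reuses the 10 treated and 3 of the sham libraries, and the 8122 genes were picked in the full fit. These values are therefore not independent of the full fit. With the ratio as a term 4274 genes were called. When all 50 mice shared 1 estimate of the spread, 4399 genes were called. Of the genes named below, that fit ended the calls of Ahr, Nqo1, Ighm, Car1, Tjp1, mt-Nd5, Jund, Upk1b, Adipoq, Clps, Areg, Hmox1 and Guca2b, of 9 pancreatic genes, and of those for which it is given beside the result.

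Genes were grouped into 52 lists of 769 genes, of which 767 are in the table and 731 were tested; the rest had too few counts. The shares called higher or lower in each list are read against 23.7% and 21.6%. In whole colon, fewer cells of a type and less RNA per cell cannot be told apart.

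**Figure D2:**
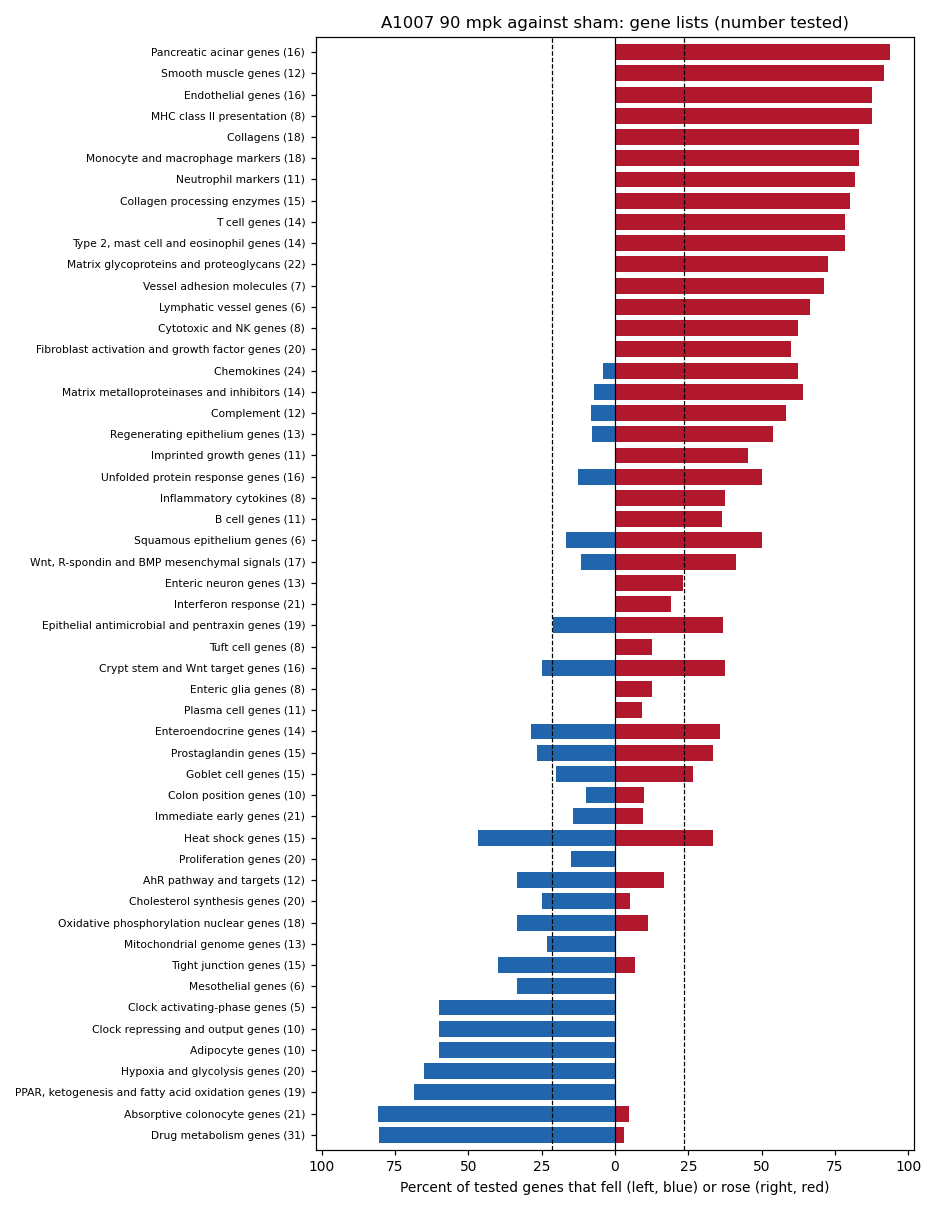
Percent of the tested genes of each list (number in brackets) that rose (red, right) or fell (blue, left) at 90 mpk against sham, 10 mice each, by edgeR at an adjusted p under 0.05. Dashed lines mark the shares over all 17928 genes, 23.7% higher and 21.6% lower. Smooth muscle, endothelial, MHC class II and collagen lists lie at the top, below the pancreatic list, and drug metabolism and colonocyte lists at the bottom.

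In the pathway of the compound's receptor more genes fell than rose, and the classic target Cyp1a1 was not called. Of 12 tested genes, 2 rose and 4 fell, and the median log2 fold change was -0.17. Promoters of 3 members are shown because these genes are standard readouts of AhR and are described next. They are the 250 bases before the RefSeq start on GRCm38.p6, a build other than that of the counts, at chr9:57697363-57697612 (plus strand) for Cyp1a1, chr17:79715062-79715311 (minus strand) for Cyp1b1 and chr3:65528197-65528446 (plus strand) for Tiparp. Capitals mark GCGTG, the core of the dioxin response element, on either strand (CACGC on the other).
Cyp1a1: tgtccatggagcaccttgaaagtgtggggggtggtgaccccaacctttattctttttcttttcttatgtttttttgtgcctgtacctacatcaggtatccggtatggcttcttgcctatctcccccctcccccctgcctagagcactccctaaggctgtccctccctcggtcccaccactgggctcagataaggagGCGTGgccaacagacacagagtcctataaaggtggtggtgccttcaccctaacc
Cyp1b1: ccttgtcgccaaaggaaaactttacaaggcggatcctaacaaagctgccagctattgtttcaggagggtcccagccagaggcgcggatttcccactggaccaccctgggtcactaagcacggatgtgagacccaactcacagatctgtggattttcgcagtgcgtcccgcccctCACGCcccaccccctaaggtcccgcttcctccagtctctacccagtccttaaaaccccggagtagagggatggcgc
Tiparp: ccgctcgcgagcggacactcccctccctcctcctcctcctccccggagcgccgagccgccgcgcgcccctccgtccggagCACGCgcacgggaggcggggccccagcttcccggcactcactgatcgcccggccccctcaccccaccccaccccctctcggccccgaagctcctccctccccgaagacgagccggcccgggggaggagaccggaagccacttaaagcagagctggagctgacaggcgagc
Each holds 1 match, as do 28.2% of 32851 RefSeq promoters of this length, at least once; the match begins 54, 76 and 170 bases before the start. Of 10 genes in the list with a promoter in the table, 6 hold the motif.

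Ahr itself stood at 4.71, 5.05 and 5.43 FPKM (lowest, median and highest) in sham and 4.91, 5.67 and 6.53 FPKM at 90 mpk. In 8 of 10 treated mice it lay above all sham mice, and the log2 fold change was 0.16 ± 0.04 (SE, n = 10 per group), with an adjusted p of 0.0052. Cyp1a1, the enzyme most used as a readout of AhR, was near the floor in both groups. It had 0.04, 0.35 and 0.51 FPKM in sham and 0.11, 0.275 and 0.43 FPKM at 90 mpk, a difference of -0.30 ± 0.30 (adjusted p = 0.43) with a 95% interval from -0.92 to 0.32. No treated mouse lay above the sham range. Cyp1b1, a relative of Cyp1a1 also made by fibroblasts and myeloid cells, had 0.05, 0.125 and 0.33 FPKM in sham and 0.06, 0.165 and 0.34 FPKM at 90 mpk (difference 0.26 ± 0.30, adjusted p = 0.50). In vehicle mice Cyp1b1 ranged from 0.16 to 14.5 FPKM, 4.55 above sham on the log2 scale, and 90 mpk was 4.29 below vehicle (log2 difference -4.29 ± 0.65, adjusted p = 3.1e-05). Ahrr, the repressor that AhR induces, differed by 0.07 ± 0.18 (adjusted p = 0.79), and Arnt by -0.07 ± 0.04 (adjusted p = 0.19).

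Tiparp, an AhR target that dampens the receptor by ADP-ribosylation, fell below sham. It had 5.7, 7.205 and 8.12 FPKM in sham and 4.49, 5.295 and 6.75 FPKM at 90 mpk, a log2 change of -0.43 ± 0.07 (adjusted p = 7.9e-05), with 7 of 10 treated mice below every sham mouse. Vehicle mice were not called against sham for Tiparp (0.16, adjusted p = 0.39), and 90 mpk was lower than vehicle (-0.59, adjusted p = 0.0057). Ugt1a6a, a glucuronosyltransferase, fell by 0.98 ± 0.19 on the log2 scale, from a median of 2.795 to 1.185 FPKM. Gsta1, a glutathione transferase, fell by 1.56 ± 0.40, and Nqo1, a quinone reductase, by 0.26 ± 0.10, a call that ended when any of 10 of the 20 mice was left out. Aldh3a1 (-0.36, adjusted p = 0.28) and Lpar1 (0.05, adjusted p = 0.27) were not called. In the low-ratio libraries Tiparp kept its call, and Ahr (adjusted p = 0.35), Ugt1a6a (0.088), Gsta1 (0.48) and Nqo1 (0.67) did not. Gsta1 is 1 of the 288 genes that followed the ratio, and its change was -0.35 there.

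Neutrophil genes remained above sham, far below their level with vehicle. Of 11 tested markers 9 rose and none fell, with a median log2 fold change of 1.77; the same median for vehicle against sham was 6.06, and all 11 were lower at 90 mpk than with vehicle. Retnlg, a secreted protein of neutrophils, had 0.5, 1.505 and 6.99 FPKM in sham and 6.07, 11.7 and 21.1 FPKM at 90 mpk. Of the treated mice, 9 of 10 lay above all sham mice (2.64 ± 0.36, adjusted p = 1.6e-05). Mmp9, a gelatinase stored in neutrophil granules, had 0.37, 0.71 and 0.8 FPKM in sham and 1.24, 2.24 and 3.46 FPKM at 90 mpk, without overlap (1.77 ± 0.17, adjusted p = 1.8e-07). Csf3r, the receptor for granulocyte growth factor, rose by 1.18 ± 0.23. With only low-ratio libraries, 4 of the 11 rose, these 3 among them.

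Macrophage genes rose by less and more uniformly. Of 18 markers 15 rose and none fell (median 0.58, against 1.55 for vehicle), and 5 did not overlap with sham. The 3 subunits of C1q, the complement initiator made by tissue macrophages, were among these 5. C1qb had 18.4, 23.9 and 26.1 FPKM in sham and 36.6, 41.5 and 59.7 FPKM at 90 mpk (0.88 ± 0.08, adjusted p = 7.8e-08), C1qa rose by 0.87 ± 0.10 and C1qc by 1.01 ± 0.10. Among low-ratio libraries, 11 of the 18 rose, the C1q genes included. Complement genes numbered 7 higher and 1 lower of 12; C3ar1, the receptor for C3a on myeloid cells, rose by 1.00 ± 0.12 and did not overlap, and 3 of the 12 rose with low-ratio libraries.

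Inflammatory cytokines were above sham in 3 members. Of 8 tested, 3 rose (median 0.58, against 5.04 for vehicle), whereas all 8 had risen with vehicle, and all 8 were lower at 90 mpk than with vehicle. Il1b had 0.6, 1.11 and 2 FPKM in sham and 1.31, 1.85 and 5.48 FPKM at 90 mpk (1.10 ± 0.26, adjusted p = 0.002). Il6 rose by 2.08 ± 0.59 but stayed between 0 and 0.23 FPKM, and Osm, a cytokine of the same family, rose by 1.28 ± 0.33. Il33, an alarmin of stromal cells picked after its values were seen, did not differ detectably (0.01 ± 0.12, adjusted p = 0.94), while vehicle stood 2.03 above sham. Restricted to libraries of low ratio, only Il1b of these 8 kept a call, and when all 50 mice shared a spread none of Il1b (adjusted p = 0.26), Il6 (0.29) and Osm (0.17) did; Csf3r (0.061) was lost there too.

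Chemokines included genes that were called against sham and not against vehicle. Of 24, 15 rose and 1 fell (median 0.76), while against vehicle 12 were lower and 1 was higher. Ccl8, which draws monocytes and eosinophils, had 1.61, 2.665 and 6.2 FPKM in sham and 8.31, 13.9 and 32.1 FPKM at 90 mpk, without overlap (5.65-fold, adjusted p = 4.4e-07). Vehicle stood 2.79 above sham for Ccl8, and 90 mpk against vehicle gave -0.29 (adjusted p = 0.71). Cxcl12, made by stroma to retain leukocytes, rose by 0.55 ± 0.07. Ccl28, an epithelial chemokine for IgA plasma cells, fell by 0.49 ± 0.08 and was within 0.06 of vehicle (adjusted p = 0.85). When high-ratio libraries were left out, 8 rose and 1 fell, these 3 genes among them.

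Mast cell genes rose, and several granule and receptor genes lay within the wide range of the vehicle mice. Of 14 tested type 2, mast cell and eosinophil genes 11 rose and none fell, with a median of 2.09 and 7 genes not overlapping with sham. The median for vehicle was 2.93; against vehicle 1 of the 14 was higher, the receptor Kit (0.54 ± 0.12), and 2 were lower, the histamine enzyme Hdc (-3.76 ± 0.65) and the IL-33 receptor Il1rl1 (-2.06 ± 0.43), all 3 named after their values were seen. Promoters are shown for 3 of the 9 genes of the list found to hold GATAA, the core read by GATA factors. Whether the motif takes part in these changes was not tested. They are chr3:20242182-20242431 (minus strand) for Cpa3, chr19:11623720-11623969 (minus strand) for Ms4a2 and chr14:56017714-56017963 (plus strand) for Mcpt1, from RefSeq on GRCm38.p6. Capitals mark GATAA on either strand (TTATC on the other).
Cpa3: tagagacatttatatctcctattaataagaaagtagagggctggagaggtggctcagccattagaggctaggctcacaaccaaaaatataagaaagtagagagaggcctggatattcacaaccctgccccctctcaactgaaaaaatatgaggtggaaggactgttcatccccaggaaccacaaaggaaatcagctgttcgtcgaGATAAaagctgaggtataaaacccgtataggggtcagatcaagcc
Ms4a2: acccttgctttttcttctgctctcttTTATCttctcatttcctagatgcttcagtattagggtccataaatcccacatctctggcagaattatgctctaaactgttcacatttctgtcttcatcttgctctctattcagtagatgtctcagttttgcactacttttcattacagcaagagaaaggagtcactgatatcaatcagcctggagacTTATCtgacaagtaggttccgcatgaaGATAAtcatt
Mcpt1: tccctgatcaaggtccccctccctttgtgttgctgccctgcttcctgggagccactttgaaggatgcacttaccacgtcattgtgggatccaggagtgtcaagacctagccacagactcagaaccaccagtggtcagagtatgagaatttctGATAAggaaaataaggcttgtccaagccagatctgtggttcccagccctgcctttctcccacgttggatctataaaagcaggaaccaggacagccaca
Ms4a2 holds 3 matches and each of the others 1; 22.6% of the 32851 promoters hold at least 1. Of 16 genes of the list with a promoter in the table, 9 hold the motif.

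Cpa3, the carboxypeptidase of mast cell granules, had 0.24, 0.6 and 1.29 FPKM in sham and 2.6, 4.58 and 6.35 FPKM at 90 mpk. The groups did not overlap, and the change was 2.68 ± 0.24 (6.43-fold, adjusted p = 1.5e-07). Ms4a2, the beta chain of the high-affinity IgE receptor, had 0.03, 0.095 and 0.19 FPKM in sham and 0.32, 0.815 and 1.16 FPKM at 90 mpk (2.86 ± 0.29). Fcer1a, its IgE-binding chain, rose by 3.65 ± 0.35, or by 2.96 in the low-ratio libraries, and is among the genes that followed the ratio. Mcpt1 and Mcpt2, proteases of mucosal mast cells named after their values were seen, were the most abundant. Mcpt1 had 1.97, 3.635 and 21.6 FPKM in sham and 38.9, 71.4 and 143.6 FPKM at 90 mpk, 14.6-fold higher (3.86 ± 0.40, adjusted p = 1.9e-06). Mcpt2 rose by 4.14 ± 0.38, from a median of 1.14 to 33.6 FPKM, and sham replicate 5 was the highest sham mouse for both. All 10 treated mice lay inside the vehicle range for these 5 genes. Vehicle mice varied widely: the summed level of the list ran from 19.95 to 900.2 FPKM with vehicle. It ran from 21.19 to 51.16 FPKM in sham and from 87.33 to 234.3 FPKM at 90 mpk. The vehicle range of the sum thus held the sham mice too, and lying inside it does not place treated mice at the vehicle level. Against vehicle the difference was -0.53 for Cpa3 (adjusted p = 0.50, 95% interval -1.54 to 0.48) and -0.29 for Mcpt1 (adjusted p = 0.82, interval -1.75 to 1.16). In the low-ratio libraries 10 of the 14 rose. The proteases of this family lie in 1 gene cluster and are similar in sequence, so reads may be divided among them.

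T cell and cytotoxic genes rose against sham in most members, with smaller changes, and B and plasma cell genes in fewer. T cell genes rose in 11 of 14 (median 0.75); Trac, the constant part of the alpha receptor chain, had 0.88, 1.37 and 3.07 FPKM in sham and 1.6, 3.41 and 5.62 FPKM at 90 mpk (1.10 ± 0.25, adjusted p = 9.4e-04). Cd8b1 rose by 1.48 ± 0.30 and Cd8a by 0.76 ± 0.18. Cytotoxic genes rose in 5 of 8. Gzma, a granzyme, had 0.25, 0.705 and 0.99 FPKM in sham and 1.32, 3.185 and 7.34 FPKM at 90 mpk without overlap (2.22 ± 0.29, adjusted p = 5.1e-06), Gzmb rose by 2.22 ± 0.31, and the transcription factor Eomes by 1.08 ± 0.22. B cell genes rose in 4 of 11, Cd79a by 0.91 ± 0.30 and Cd79b by 1.05 ± 0.31. Of 11 plasma cell genes only Ighm did (0.83 ± 0.25), beside 23.7% higher over all genes. Neither T cell, cytotoxic nor B cell genes gave any call between 90 mpk and vehicle. Among low-ratio libraries, 1 T cell gene (Cd8a), 2 cytotoxic genes (Gzma and Gzmb) and no B or plasma cell gene rose; the adjusted p was 0.31 for Trac, 0.11 for Cd8b1, 0.089 for Eomes, 0.22 for Cd79a, 0.14 for Cd79b and 0.23 for Ighm.

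MHC class II genes, which present antigen to helper T cells, were above both sham and vehicle. Of 8 tested, 7 rose against sham (median 0.89) and 4 were higher than with vehicle, while vehicle against sham gave 1. Cd74, the invariant chain that guards the peptide groove, had 161.6, 172.4 and 308.6 FPKM in sham and 235.5, 339.2 and 653.6 FPKM at 90 mpk (0.93 ± 0.15, adjusted p = 1.0e-04). Of the treated mice, 8 of 10 lay above all sham mice; the highest sham mouse was replicate 3 and the highest treated mouse replicate 9. H2-Aa rose by 0.97 ± 0.16 and H2-Ab1 by 0.95 ± 0.16. Against vehicle the differences were 0.71 for Cd74 (adjusted p = 0.028), 0.71 for H2-Aa (0.025) and 0.76 for H2-Ab1 (0.028). Restricted to libraries of low ratio, 5 of the 8 rose, these 3 included. Interferon response genes rose in 4 of 21, with Oas2, an antiviral enzyme, up by 1.52 ± 0.40; Oas2 was lost in the low-ratio libraries (adjusted p = 0.073).

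Matrix genes were above sham, and most collagens were below vehicle. Collagens rose in 15 of 18 and fell in none, with a median of 0.83 against 1.54 for vehicle; 15 were lower than with vehicle, and 11 did not overlap with sham. Col3a1, a chain of fibrillar collagen named with Col1a1 after the values were seen, had 36.7, 52.4 and 66.2 FPKM in sham and 69.7, 126.4 and 157.3 FPKM at 90 mpk (1.17 ± 0.15, adjusted p = 9.5e-06). Vehicle stood 2.34 above sham for Col3a1, and no treated mouse reached the vehicle range. Col1a1 rose by 1.44 and stood 1.42 below vehicle. Col4a1 and Col4a2, chains of basement membrane collagen, rose by 1.07 ± 0.10 and 0.88 ± 0.10. Col16a1, a fibril-associated collagen, rose by 0.78 ± 0.09 and was within 0.06 of vehicle (adjusted p = 0.80).

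Enzymes that process collagen rose in 12 of 15. Lox, which cross-links collagen and elastin, had 0.68, 0.85 and 1.28 FPKM in sham and 1.69, 4.475 and 9.5 FPKM at 90 mpk, 5.18-fold higher and without overlap (2.37 ± 0.22, adjusted p = 5.0e-07). In vehicle mice Lox ranged from 6.98 to 89.2 FPKM. Loxl2 rose by 0.99 ± 0.13, Bmp1, the procollagen C-proteinase, by 0.68 ± 0.07, and Serpinh1, the collagen chaperone, by 0.91 ± 0.12. Matrix glycoproteins and proteoglycans rose in 16 of 22: Eln, elastin, by 1.67 ± 0.16, Bgn, biglycan, by 0.86 ± 0.11 and Aspn, asporin, by 0.60 ± 0.07. Aspn did not follow vehicle, which was 0.05 from sham (adjusted p = 0.85), and 90 mpk was 0.55 above vehicle (adjusted p = 0.012). Metalloproteinases and their inhibitors rose in 9 of 14 and fell in 1. Timp1, the inhibitor, had medians of 1.06 FPKM in sham, 48.5 with vehicle and 2.955 at 90 mpk (1.98 ± 0.32), Mmp2 rose by 0.79 ± 0.09 and Mmp14 by 0.67 ± 0.08.

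Fibroblast genes rose in 12 of 20: Pdgfrb, the growth factor receptor of pericytes and fibroblasts, by 0.67 ± 0.08, Tgfbi by 0.49 ± 0.08 and Inhba, the activin A subunit, by 0.95 ± 0.15. Among stromal signals to the crypt, 7 of 17 rose and 2 fell. Grem1, a BMP antagonist, had 12.8, 14.8 and 18.3 FPKM in sham and 19.4, 40.6 and 75.3 FPKM at 90 mpk (1.41 ± 0.19, adjusted p = 1.5e-05), Rspo3, a Wnt amplifier, rose by 0.78 ± 0.11 and Dkk3 by 0.46 ± 0.07. H19, a long noncoding RNA that is silent in most adult tissue, was near the floor in sham, with 0.02, 0.14 and 0.22 FPKM. At 90 mpk it had 0.47, 1.055 and 3.91 FPKM, 11.5-fold higher and without overlap (3.52 ± 0.43, adjusted p = 5.0e-06), and 1.17 below vehicle (adjusted p = 0.031). Of the imprinted growth genes 5 of 11 rose, among them Grb10 (0.60 ± 0.08) and Mest (0.74 ± 0.12). When high-ratio libraries were left out, 13 collagens, 8 processing enzymes, 11 glycoproteins, 7 metalloproteinase genes, 10 fibroblast genes and 4 stromal signals rose, with each gene named here still called. In 1 fit of all 50 mice Timp1 (adjusted p = 0.057) and Inhba (0.052) were lost.

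**Figure D3:**
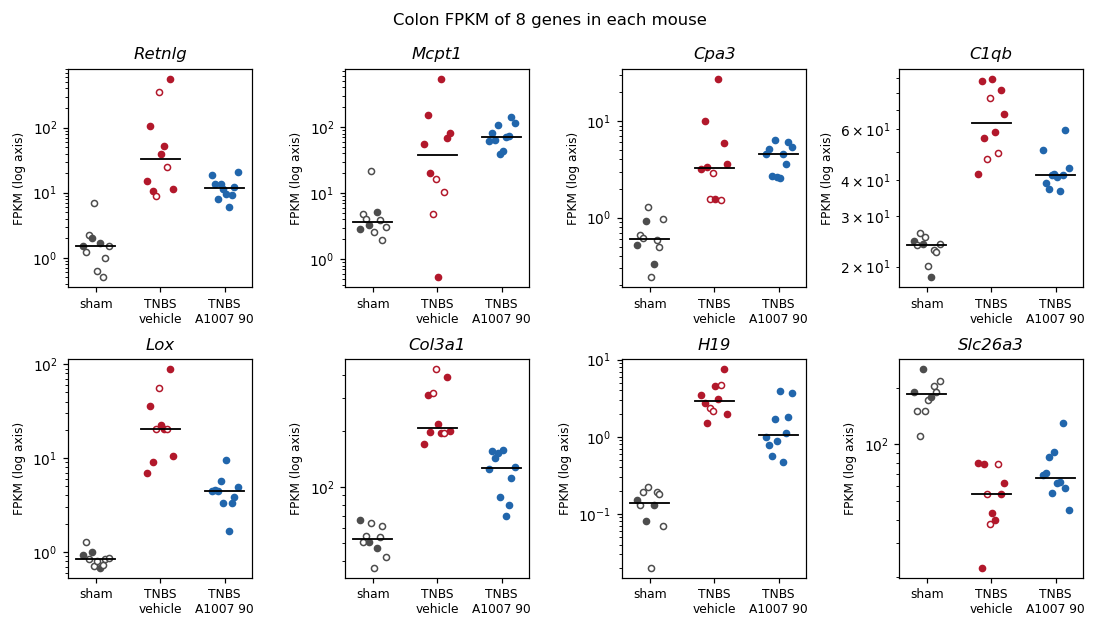
FPKM on log axes of 8 genes in each mouse of sham, TNBS vehicle and TNBS with A1007 at 90 mpk (10 per group; the line is the median; open circles are libraries of high pseudogene ratio). Mcpt1 and Cpa3 at 90 mpk lie within the vehicle range, Col3a1 between sham and vehicle, Lox above sham and mostly below vehicle, and Slc26a3 with vehicle below sham.

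Vessel and muscle genes rose together with the matrix. Endothelial genes rose in 14 of 16 (median 0.67, against 0.71 for vehicle). Sox18, a factor of vessel growth, rose by 1.19 ± 0.13 and Apln, the tip cell peptide, by 1.18 ± 0.13. Esm1, a proteoglycan of sprouting vessels, had 1.54, 2.335 and 3.24 FPKM in sham and 3.57, 5 and 6.43 FPKM at 90 mpk without overlap (1.10 ± 0.11, adjusted p = 3.8e-07). Esm1 was not called for vehicle (0.32, adjusted p = 0.13) and was 0.78 above vehicle at 90 mpk (adjusted p = 3.5e-04). Adhesion molecules of vessels rose in 5 of 7, with Madcam1, the gut homing address, up by 1.24 ± 0.25 and Icam1 by 0.54 ± 0.11. Lymphatic genes rose in 4 of 6, with Pdpn up by 0.74 ± 0.10 and Prox1 by 0.35 ± 0.08.

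Smooth muscle genes rose in 11 of 12 (median 0.54), while vehicle gave no call in this list (0 of 12) and 4 were higher at 90 mpk than with vehicle. Tagln, an actin cross-linker, had 111.6, 126.8 and 158.8 FPKM in sham and 144.7, 215.2 and 268.9 FPKM at 90 mpk (0.74 ± 0.09, adjusted p = 1.8e-06). Lmod1 rose by 0.56 ± 0.09 and was 0.74 above vehicle (adjusted p = 3.0e-04); Smtn rose by 0.52 ± 0.08 and was 0.63 above vehicle (adjusted p = 0.0011). Beside this, the summed level of 21 colonocyte genes had a median of 6030 FPKM in sham and 4215 FPKM at 90 mpk, and that of the muscle genes 2119 and 3162 FPKM; the part of tissue makeup in either result was not tested. Nerve genes changed in few members. Gal rose by 0.82 ± 0.15 and Vip by 0.41 ± 0.08, both neuropeptides, among 3 of 13 neuronal genes, and Sox10 by 0.58 ± 0.15 as the only called gene of 8 for glia. With only low-ratio libraries, 11 endothelial and 9 muscle genes rose, with the genes named here still called. In 1 fit of all 50 mice Gal (adjusted p = 0.071) and Vip (0.15) were lost.

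Genes of the absorptive surface stayed below sham. Of 21 colonocyte genes 17 fell and 1 rose, with a median of -0.59, beside -0.67 for vehicle; the riser was Guca2b, uroguanylin (0.19 ± 0.08), whose call ended when any of 14 of the 20 mice was left out and with DESeq2. Guca2b here, and Areg and Hmox1 below, were named after their values were seen. Slc26a3, the chloride-bicarbonate exchanger and a defining marker, had 110.8, 183.8 and 251 FPKM in sham and 45.1, 66.3 and 130.3 FPKM at 90 mpk. Of the treated mice, 9 of 10 lay below all sham mice (-1.33 ± 0.18, adjusted p = 1.4e-05), and the difference from vehicle was 0.37 (adjusted p = 0.29, 95% interval -0.11 to 0.85). Atp12a, the colonic proton-potassium pump, had 35.7, 58.4 and 105.2 FPKM in sham and 9.46, 17.5 and 26.4 FPKM at 90 mpk, wholly below sham (-1.92 ± 0.25, adjusted p = 1.1e-05). Slc20a1, a phosphate transporter, fell by 0.97 ± 0.10 without overlap. Scnn1g, a subunit of the epithelial sodium channel, had 1.06, 2.26 and 4.08 FPKM in sham and 0.14, 0.51 and 1.1 FPKM at 90 mpk (-2.23 ± 0.30, adjusted p = 1.2e-05). It was not called for vehicle (-0.81, adjusted p = 0.12) and was 1.42 below vehicle on the log2 scale at 90 mpk (-1.42, adjusted p = 0.025). Among the other defining markers, Car1 (-0.67), Krt20 (-0.59) and Cdh17 (-0.39) fell and Muc2 did not (-0.09, adjusted p = 0.47). In the low-ratio libraries 14 of the 21 fell; Car1 (adjusted p = 0.32) and Krt20 (0.16) were lost.

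Tight junction genes fell in 6 of 15 and rose in 1, Ocln by 0.36 ± 0.06, Tjp1 by 0.33 ± 0.06 and Cldn12 by 0.19 ± 0.04. Pigr, which carries IgA across the epithelium, had 917.1, 1034 and 1117 FPKM in sham and 697.9, 789.6 and 853.3 FPKM at 90 mpk, wholly below sham (-0.38 ± 0.05, adjusted p = 3.6e-06). Goblet cell genes split, 4 higher and 3 lower of 15. The membrane mucins Muc13 and Muc4 fell by 0.42 ± 0.07 and 0.59 ± 0.12. Spink4, a secreted inhibitor of goblet cells, rose by 1.17 ± 0.26 and did not differ detectably from vehicle (difference -0.02, adjusted p = 0.97). Genes of regenerating epithelium rose in 7 of 13 and fell in 1, the growth factor Areg (-0.81 ± 0.19), against 12 of 13 higher with vehicle. Krt7 rose by 0.41 ± 0.05 and Anxa8, an annexin of reprogrammed crypts, by 1.14 ± 0.18, from 16.3 to 30.1 FPKM at the median. Krt13, a keratin of stratified epithelium, was near the floor in sham and rose by 3.11 ± 0.56, to 0.815 FPKM at the median. Of the crypt and Wnt target genes 6 rose and 4 fell of 16; Smoc2 rose by 0.81 ± 0.11 and Nkd1 by 0.48 ± 0.08, and Axin2 fell by 0.29 ± 0.05, though it was 0.53 above vehicle (adjusted p = 0.0016). Restricted to libraries of low ratio, the called genes numbered 0 higher and 6 lower for tight junctions, 3 and 2 for goblet cells, 3 and 1 for the crypt and 1 and 1 for regenerating epithelium, and Muc4 (adjusted p = 0.0503), Anxa8 (0.059) and Krt13 (0.097) were lost.

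Secreted products of the epithelium included genes above both sham and vehicle. Of 19 antimicrobial and pentraxin genes 7 rose and 4 fell. Mptx1, a mucosal pentraxin, had 569.7, 1141 and 2553 FPKM in sham, 43.2, 396 and 2015 FPKM with vehicle and 2825, 4016 and 5313 FPKM at 90 mpk. Every treated mouse lay above every sham and every vehicle mouse, 3.09-fold above sham (1.63 ± 0.24, adjusted p = 3.6e-05) and 2.65 ± 0.57 above vehicle on the log2 scale (adjusted p = 0.001). Another 4 genes were named after their values were seen. Mptx2 rose by 1.32 (adjusted p = 1.1e-04) and was 2.42 above vehicle (adjusted p = 0.0012). Ang4, a bactericidal ribonuclease, rose by 1.51 (adjusted p = 0.0023) and was 2.59 above vehicle (adjusted p = 0.011). Itln1, a lectin that binds microbial sugars, rose by 1.26 (adjusted p = 0.0049), and Reg4, a lectin of deep crypt secretory cells, by 1.55 (adjusted p = 6.5e-05). Mptx1 and Mptx2 are close relatives, so reads may be divided between them. Saa1, an acute-phase protein, fell by 1.10 ± 0.16. Lcn2, a siderophore-binding protein induced in inflamed epithelium and also chosen after its values were seen, had medians of 0.425 FPKM in sham, 16.4 with vehicle and 1.125 at 90 mpk (1.38, adjusted p = 3.2e-04). When high-ratio libraries were left out, 6 of the list rose and 2 fell, and Itln1 was lost (adjusted p = 0.11); in 1 fit of all 50 mice Ang4 (0.084), Itln1 (0.057) and Lcn2 (0.30) were lost.

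Enteroendocrine genes moved in both directions, 5 higher and 4 lower of 14. Insl5, the insulin-like hormone of distal colon L cells, had 53.6, 59 and 80.96 FPKM in sham and 110.9, 139.8 and 192.7 FPKM at 90 mpk. All treated mice lay above all sham mice (2.25-fold, 1.17 ± 0.10, adjusted p = 1.0e-07), and the difference from vehicle was 0.83 (adjusted p = 0.057). Chgb, a granin, fell by 0.49 ± 0.07 without overlap, and Tph1, the enzyme of serotonin synthesis in enterochromaffin cells, fell by 0.65 ± 0.10. Genes of position along the colon gave 1 call in each direction of 10: Hoxd10 rose by 0.59 ± 0.10 and was 0.55 above vehicle (adjusted p = 0.0047). These 4 genes kept their calls in the low-ratio libraries.

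**Figure D4:**
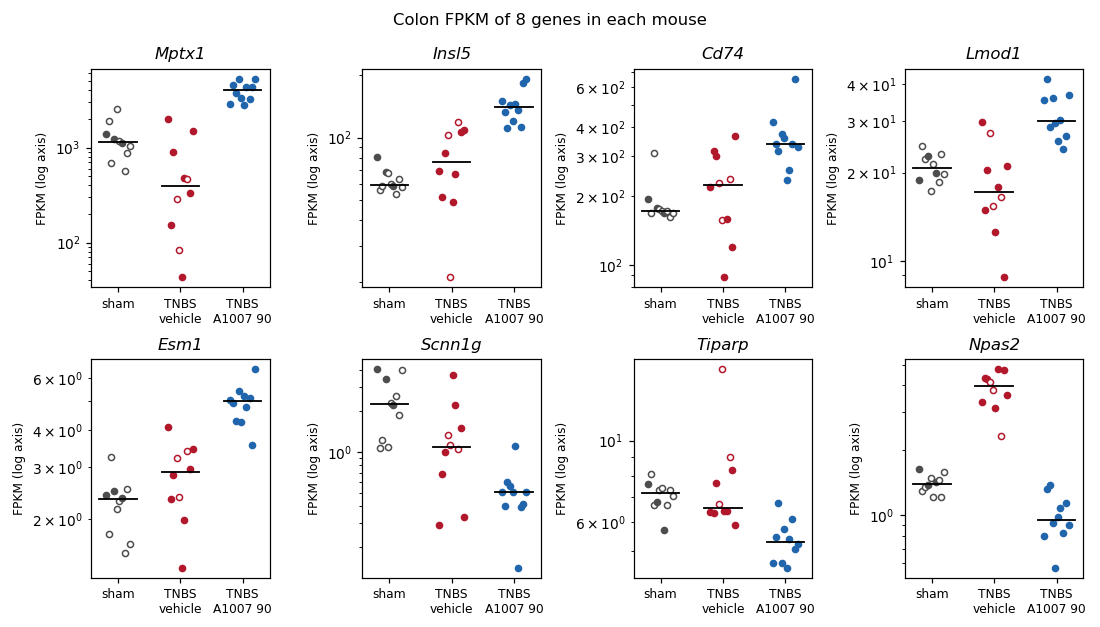
FPKM on log axes of 8 genes in each mouse, drawn as in the plot that holds Mcpt1, Col3a1 and Slc26a3. Mptx1 and Insl5 at 90 mpk lie above all sham mice, 9 of 10 treated mice lie below all sham mice for Scnn1g and 8 of 10 for Npas2, and every vehicle mouse lies above sham for Npas2.

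Metabolic genes of the epithelium stayed low. Drug metabolism genes fell in 25 of 31 and rose in 1, the heme oxygenase Hmox1 (0.50 ± 0.12), with a median of -0.46, beside -0.65 for vehicle. Cyp2d9, a cytochrome P450 among the 12 largest falls, had 5.02, 6.975 and 8.3 FPKM in sham and 0.83, 1.5 and 1.82 FPKM at 90 mpk, 0.21 times sham (-2.27 ± 0.14, adjusted p = 7.4e-11) and wholly below it. Its level was also 0.99 below vehicle (-0.99, adjusted p = 0.019). Cyp2s1 fell by 0.48 ± 0.06, Ugt2b34 by 0.56 ± 0.08 and Ugt2b35 by 0.46 ± 0.06. Genes of fatty acid oxidation and ketogenesis fell in 13 of 19, with Ehhadh down by 0.43 ± 0.08 and Cpt2 by 0.37 ± 0.07. With only low-ratio libraries, 9 drug metabolism genes and 4 oxidation genes fell, with the genes named here still called.

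Glycolysis and hypoxia genes fell in 13 of 20 and rose in none, whereas vehicle gave 4 higher and 1 lower. Hk2, hexokinase 2, had 13.3, 19.6 and 22.8 FPKM in sham and 11.9, 12.8 and 16.6 FPKM at 90 mpk (-0.57 ± 0.09, adjusted p = 3.6e-05), and Pdk1, the brake on pyruvate entry, fell by 0.37 ± 0.04 without overlap. Cholesterol synthesis genes fell in 5 of 20 and rose in 1, beside 21.6% and 23.7% over all genes. Of the prostaglandin genes 5 rose and 4 fell of 15. Slco2a1, the prostaglandin transporter, fell by 0.57 ± 0.06 without overlap, Ptger4, a prostaglandin E2 receptor, fell by 0.24 ± 0.04, and Ptgis, prostacyclin synthase, rose by 0.59 ± 0.11. Nuclear genes of oxidative phosphorylation fell in 6 of 18 and rose in 2. Mitochondrially encoded genes fell in 3 of 13, beside 21.6% over all genes. Among them mt-Nd5 fell by 0.32 ± 0.07, a call lost in the low-ratio libraries (adjusted p = 0.093). There, 8 glycolysis and hypoxia genes fell, 1 cholesterol gene fell, 3 prostaglandin genes rose and 3 fell, and 1 nuclear oxidative gene rose and 5 fell.

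Clock genes, which drive daily rhythm, lay just below sham in both lists. Repressing and output genes fell in 6 of 10 (median -0.17), where vehicle had all 10 lower (median -1.76) and 9 were higher at 90 mpk than with vehicle. Per1 had 8.68, 10.6 and 13.2 FPKM in sham and 3.57, 6.66 and 8.03 FPKM at 90 mpk, wholly below sham (-0.75 ± 0.11, adjusted p = 1.9e-05), and Per2 fell by 0.62 ± 0.10. Ciart, a repressor of the loop, fell by 0.48 ± 0.10, against -2.56 for vehicle. Activating-phase genes fell in 3 of 5: Npas2 had 1.21, 1.4 and 1.64 FPKM in sham, 2.32, 3.98 and 4.77 FPKM with vehicle and 0.57, 0.95 and 1.38 FPKM at 90 mpk (-0.53 ± 0.12, adjusted p = 0.0013). Clock fell by 0.27 ± 0.06. Cry1, itself a repressor of the loop and placed in this list by phase, fell by 0.50 ± 0.10. No source used here gives the hour at which each group was sampled, so sampling time and treatment cannot be told apart. Among low-ratio libraries 3 repressing and 3 activating-phase genes fell. Ciart lost its call in the low-ratio libraries (adjusted p = 0.083) and in 1 fit of all 50 mice (0.14).

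Proliferation genes gave few calls against sham: 3 of 20 fell and none rose, beside 21.6% and 23.7% over all genes. Against vehicle 16 of the 20 were lower. Mki67, a marker of cycling cells, had 11.4, 14 and 16.6 FPKM in sham and 8.48, 10.3 and 13.9 FPKM at 90 mpk (-0.44 ± 0.08, adjusted p = 1.9e-04), Top2a fell by 0.31 ± 0.07 and Mcm6 by 0.28 ± 0.07. These 3 were lost in 1 fit of all 50 mice (adjusted p = 0.063, 0.20 and 0.17), and Top2a in the low-ratio libraries (0.072). Stress genes went both ways. Chaperones of the endoplasmic reticulum and their relatives rose in 8 of 16 and fell in 2, with Pdia6 up by 0.40 ± 0.06 and Manf by 0.52 ± 0.10. Heat shock genes rose in 5 and fell in 7 of 15, with Hspb1 up by 0.96 ± 0.14. With low-ratio libraries the heat shock list had 2 higher and 10 lower (median -0.32, against -0.06 with all sham mice), and the endoplasmic reticulum list 2 higher and 1 lower; Hspb1, Pdia6 and Manf kept their calls. Of 21 immediate early genes 2 rose and 3 fell; Klf4 fell by 0.45 ± 0.07, and Jund rose by 0.27 ± 0.07, a call lost in the low-ratio libraries (adjusted p = 0.23).

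The extremes of the ranking held genes of tissues next to the colon. Of the 12 largest rises, 10 are pancreatic enzymes or are high in acinar tissue, namely Pnlip, Try4, Cpa1, Cela3b, Cela2a, Cel, Try5, Ctrb1, Prss2 and Rnase1. Their log2 fold changes ran from 4.28 (Rnase1) to 7.51 (Pnlip), but medians at 90 mpk were at most 0.36 FPKM. Pnlip, pancreatic lipase, was between 0 and 0.21 FPKM in sham and reached 40 FPKM in 1 treated mouse, with a treated median of 0.025 FPKM. Only replicates 2 and 4 lay above all sham mice for 9 of the 10, and 5 treated mice did for Rnase1. Vehicle mice reached 932.4 FPKM of Pnlip. Without those 2 libraries none of the 10 was called. Colipase, Clps, which is read in every colon library, had 8.27, 10.6 and 16.9 FPKM in sham and 26.2, 38.9 and 81.9 FPKM at 90 mpk, without overlap (4.01-fold, adjusted p = 2.3e-06, and 0.051 with all 50 mice in 1 fit). The other 2 of the 12 did not overlap with sham. Defa24, an alpha-defensin of Paneth cells, had 0, 0.13 and 0.49 FPKM in sham and 1.79, 8.215 and 22.6 FPKM at 90 mpk (5.81 ± 0.65), and Cma2, a mast cell chymase, had at most 0.21 FPKM in sham and 0.5 to 4 FPKM at 90 mpk (4.33 ± 0.42). Defensin and trypsin genes have near-identical copies, so the level of a single member is uncertain.

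Of the 12 largest falls, Lep, Plin1, Adipoq, Slc7a10, Lpl, Orm1, Abcd2 and Glb1l2 varied widely within sham. Adipoq, the adipocyte hormone, had 0.04, 62.9 and 152.8 FPKM in sham and 0.22, 14.8 and 45.1 FPKM at 90 mpk (-2.09 ± 0.83, adjusted p = 0.047), with no treated mouse below the sham range. Adipocyte genes as a list fell in 6 of 10 and rose in none, and their summed level ran from 17.8 to 992.7 FPKM in sham and from 24.4 to 391.2 FPKM at 90 mpk. No adipocyte gene was called in the low-ratio libraries, and dropping single mice ended the calls of Adipoq, Orm1, Plin1 and Slc7a10, with adjusted p for Adipoq above 0.05 without any of 15 of the 20 mice. Mesothelial genes fell in 2 of 6, Upk1b among them (-0.59 ± 0.19, adjusted p = 0.074 in the low-ratio libraries); their part in the other results was not tested. Amy1, an amylase, also varied widely, from 0.32 to 9.55 FPKM in sham and from 0.28 to 2.48 FPKM at 90 mpk. Sham replicates 6 and 7 were the lowest sham mice for both Amy1 and Adipoq. Amy1 fell to 0.25 times sham (adjusted p = 0.0074). That call was lost in the low-ratio libraries (adjusted p = 0.096), with voom and with the ratio as a term. Cyp2d9, Scnn1g and Atp12a, the other falls among the 12, kept their calls there and without each single mouse.

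**Figure D5:**
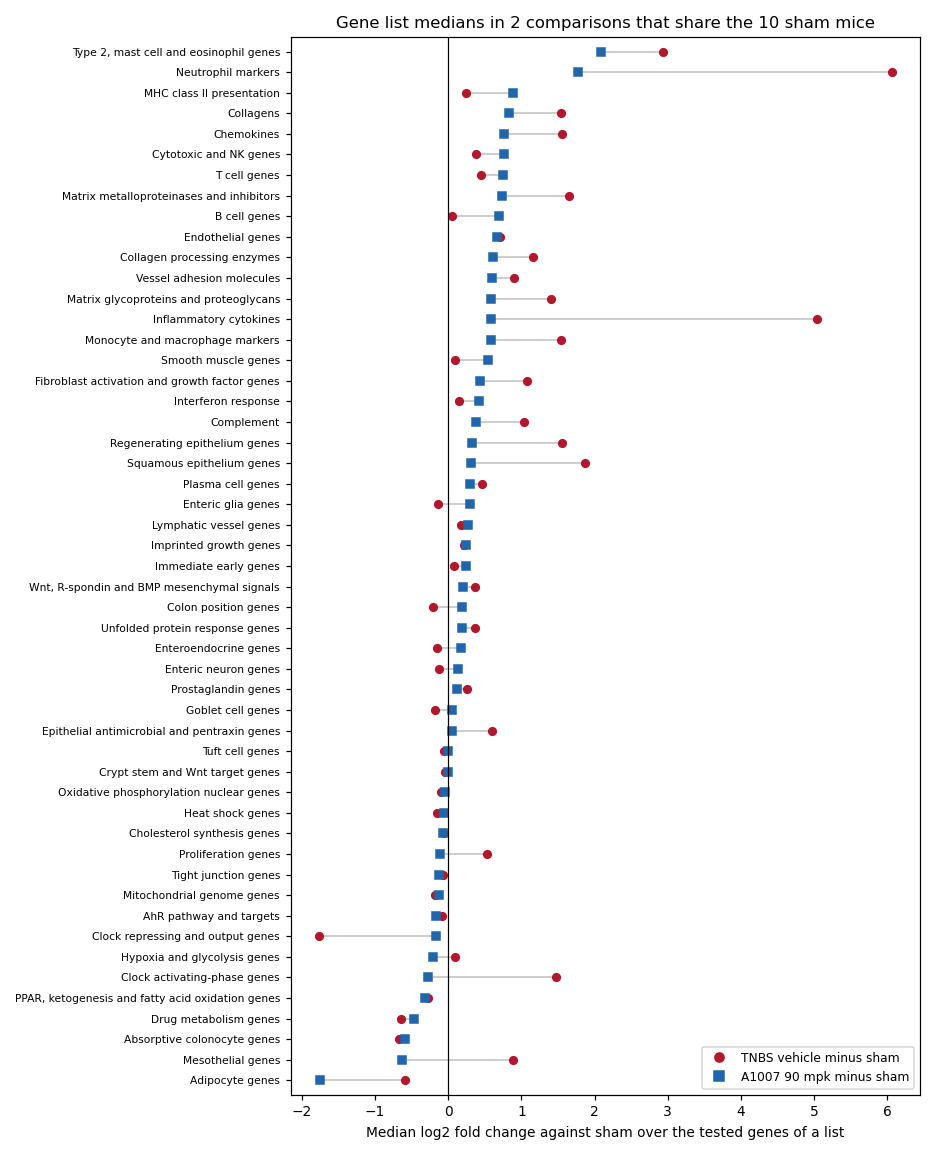
Median log2 fold change over the tested genes of each list, for TNBS vehicle minus sham (red circles) and A1007 90 mpk minus sham (blue squares), both against the same 10 sham mice; the pancreatic list is left out. Neutrophil genes have medians of 6.06 with vehicle and 1.77 at 90 mpk, mast cell genes 2.93 and 2.09, and colonocyte genes -0.67 and -0.59.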

How the data were processed

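Poly(A) RNA of colon from 50 mice was sequenced, per the labels' protocols. The submitters' processing notes list the aligner HISAT2 2.2.1, the counter HTSeq 0.6.1, the trimmer cutadapt 1.9.1, the build GRCm39 and DESeq2. No source used here states strandedness, so overlapping antisense genes cannot be told apart. The deposited table holds raw counts per gene, made by the authors, and FPKM, which the authors computed per library total and exonic length: 99.997% of values with at least 500 counts were within 1% of that formula. Levels are the deposited FPKM. Tests used the deposited counts in edgeR 4.0.16 (R 4.3.3): TMM scaling over all 50 libraries, 17928 of 56691 genes kept at a count minimum of 10, robust quasi-likelihood tests, and Benjamini-Hochberg adjustment over all kept genes with a threshold of 0.05. The 90 mpk and vehicle groups were each fitted with sham alone, and 90 mpk against vehicle within the 40 TNBS mice. Fold changes are log2, 90 mpk minus sham unless stated, ± the standard error with 10 mice per group. Replicates differed by more than sampling noise (chi-square per degree of freedom at least 7.54). Alternatives were limma 3.58.1 (voom, quantile, FPKM), DESeq2 1.42.0, other scalings and filters, and leaving out each mouse. The low-ratio fit, the ratio as a term and the fit without 2 libraries were added after seeing the data. Named genes are the 12 largest rises and falls with a mean FPKM of at least 2, the tested AhR genes and up to 3 called genes of a list with the smallest p, or are said to be chosen otherwise; some genes this rule gives are not reported here. The members and lists were chosen with earlier results of these data known. The fitting code was tested on simulated data. Precision is set by the spread among mice, at the library totals given above.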

Additional observations from a re-analysis of the deposited data

Results flagged for a closer look

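Single mice stood apart from the other 9 of their group in 25 of the 338 gene and group combinations examined (7.4%), by the gap to the nearest mouse on the scale of log2(FPKM + 0.1); chance gives about 1 in 20. Causes were not tested. Sham replicate 3 was high for antigen presentation and lymphocyte genes: Cd74 at 308.65 FPKM (next 194.41), H2-Aa at 38.18 (next 22.54), H2-Ab1 at 26.01 (next 16.58), Cd8a at 1.27 (next 0.71) and Madcam1 at 7.34 (next 3.49). The same mouse was high for Mest at 1.87 FPKM and low for Cdh17 at 101.44. Sham replicate 5 was high for mast cell and secretory genes: Mcpt1 at 21.58 FPKM (next 5.27), Mcpt2 at 7.82 (next 2.42), Ccl8 at 6.2 (next 2.94), Spink4 at 698.9 (next 367.09) and Reg4 at 1519.51 (next 870.69). At 90 mpk, replicate 9 was high for H2-Ab1 at 55.95 FPKM (next 33.88) and low for mt-Nd5 at 1347.08 and Clock at 5. Replicate 8 was high for Ccl28 at 34.68 FPKM (next 27.57). Replicate 7 was low for Gal at 7.67 FPKM and Per1 at 3.57, and high for Mcm6 at 14.37. Single sham mice were low for Cyp1a1 (replicate 7, 0.04 FPKM), Serpinh1 (replicate 6, 15.92) and Guca2b (replicate 4, 24.76), and high for Clock (replicate 4, 9.16), Pnlip (replicate 9, 0.21) and Cela3b (replicate 1, 0.2).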

How the results depend on the processing

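For A1007 90 mpk against sham, 8122 genes were called; the count was 4399 with all 50 mice in 1 fit, 3540 with only the libraries of low pseudogene ratio and 4274 with the ratio as a term. Leaving out single mice gave 7480 to 8380 genes. At 2-fold or more, 560 genes became 1256 without a filter on low counts, 163 and 325 with limma on log2(FPKM + 0.5) and log2(FPKM + 0.1), and 366 with low-ratio libraries, with 476 to 662 when single mice were left out. Fewer sham mice enter the low-ratio fit (3 in place of 10); the cause of the other moves was not tested. For TNBS vehicle against sham, 5677 called genes became 184 with low-ratio libraries, and 1203 at 2-fold became 567 with limma on log2(FPKM + 0.5) and 126 with low-ratio libraries; single mice moved these to 4788 to 6059 and 1032 to 1332. A1007 90 mpk against vehicle ranged from 2611 to 3755. Replicate numbers did not pair the mice: correlations of same-numbered deviations were -0.177 to 0.091, and 0 of 10 correlated best with their own number. With the replicate block 7193 genes were called between 90 mpk and sham. Pancreatic log2 fold changes turned negative without replicates 2 and 4 at 90 mpk and, second value, with DESeq2: Pnlip -0.2636 and -0.6945, Cpa1 -1.4389 and -1.9204, Cela3b -1.2218 and -1.6793, Cela2a -0.3995 and -0.5417, Cel -0.4968 and -0.6904, Try5 -3.7557 and -3.0951, Ctrb1 -1.9156 and -1.019, Prss2 -2.0183 and -2.243. Of the 168 genes tracked by name, 43 lost a call with low-ratio libraries, 41 with the ratio as a term, 39 with all 50 mice in 1 fit and 16 with the replicate block.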
